A study of Mus musculus with 15 samples.

Results

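The mitochondrial ribosomal proteins described here are the 77 of 24421 genes whose symbol begins with Mrpl or Mrps and a number and that had at least 100 reads over the 15 libraries. Every gene with such a symbol met that read minimum, and all 77 passed the filter on low counts that left 14421 genes to test. The libraries came from a line of immortalized adipocyte progenitors of the mouse, called MAP cells, after differentiation into adipocytes. In every group, vehicle included, the differentiation medium held insulin, isobutylmethylxanthine, dexamethasone and rosiglitazone, followed by insulin and rosiglitazone. The differentiated cells were then left with vehicle or treated, and each group has 3 libraries. Forskolin lasted 4 h in the group FSK4h, 1 day in FSK1D and 3 days in FSK3D, and rosiglitazone lasted 3 days in Rosi3D. Forskolin activates adenylyl cyclase and raises cAMP, while rosiglitazone is an agonist of the nuclear receptor PPARγ, and both were used to turn the adipocytes towards the heat-producing, mitochondria-rich state called browning. Neither doses nor the harvest time of the vehicle cells were found in the sources used here. Whether the 3 libraries of a group were separate cultures is not stated in the labels, so the p-values measure spread among these libraries that can be technical.

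Mitochondria make a few core subunits of the respiratory chain themselves, on a ribosome of their own. Its RNAs are encoded in mitochondrial DNA, and all of its proteins are encoded in the nucleus, made in the cytosol and imported. The ribosome has a large subunit, which forms the peptide bonds, and a small subunit, which decodes the mRNA. Some of its proteins descend from proteins of the bacterial ribosome, and others are particular to the mitochondrial one. In brown and beige adipocytes a high mitochondrial content goes with a large need for these core subunits. By role the 77 genes comprised 29 large-subunit proteins with a bacterial homologue and 21 without, and 16 small-subunit proteins with a bacterial homologue and 10 without. Mrps30 and Mrps18a, named for the small subunit, are counted with the large subunit, where their proteins sit. Mrps18a and Mrps18b, relatives of Mrps18c, are counted with the proteins without a bacterial homologue, although all 3 resemble bacterial S18. Mrps36 is set apart, since its protein belongs to the 2-oxoglutarate dehydrogenase complex of the TCA cycle.

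Some members share letters upstream of their start sites. RefSeq promoters (GRCm38.p6) from 250 bases before to 50 bases after the start were found for 68 members, and not for Mrpl4, Mrpl13, Mrpl15, Mrpl19, Mrpl38, Mrpl54, Mrps28, Mrps34 and Mrps35. The letters CCGGAAG, a motif of the ETS family to which the mitochondrial gene regulator GABP belongs, stood on either strand in 24 of the 68 (35.3%), against 17.1% of 10736 promoters of tested genes and 9.12% of all 27025 promoters. The letters GCGCATGCG, a core of the motif of NRF1, another regulator of mitochondrial genes, were in 10.3% of the members' promoters, 3.56% of those of tested genes and 1.81% of all. For AAGATGGCG, a form of the YY1 motif whose first letters can overlap the end of an ETS match, the shares were 11.8%, 3.02% and 1.49%. The estrogen-related receptor letters TGACCTT were in 5.88% of the members' promoters, 3.26% of those of tested genes and 4.66% of all. The palindromic cAMP response element TGACGTCA stood in 2.94%, 3.19% and 1.88%, and the TATA box letters TATAAA in 5.88%, 7.44% and 14.2%. A match describes these letters and is not a bound site. The 250 bases upstream of 4 members are printed because Mrpl12 and Mrpl34 rose most under rosiglitazone, and because Mrpl17 and Mrpl22 are among the 3 members whose window holds both the ETS and the NRF1 letters. Each run is 5′ to 3′ on the gene's strand, and capitals mark the ETS and NRF1 letters.
Mrpl12, chr11:120484387-120484636, plus strand: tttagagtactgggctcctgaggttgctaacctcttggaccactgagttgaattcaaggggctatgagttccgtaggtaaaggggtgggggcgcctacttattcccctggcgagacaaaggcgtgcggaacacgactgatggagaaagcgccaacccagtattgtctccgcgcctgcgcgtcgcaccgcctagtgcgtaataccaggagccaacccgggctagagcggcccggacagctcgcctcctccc
Mrpl34, chr8:71464676-71464925, plus strand: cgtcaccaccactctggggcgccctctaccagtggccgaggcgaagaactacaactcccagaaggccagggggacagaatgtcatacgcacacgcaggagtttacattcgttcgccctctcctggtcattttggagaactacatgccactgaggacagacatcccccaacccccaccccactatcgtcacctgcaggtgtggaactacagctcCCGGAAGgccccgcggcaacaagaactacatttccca
Mrpl17, chr7:105811088-105811337, minus strand: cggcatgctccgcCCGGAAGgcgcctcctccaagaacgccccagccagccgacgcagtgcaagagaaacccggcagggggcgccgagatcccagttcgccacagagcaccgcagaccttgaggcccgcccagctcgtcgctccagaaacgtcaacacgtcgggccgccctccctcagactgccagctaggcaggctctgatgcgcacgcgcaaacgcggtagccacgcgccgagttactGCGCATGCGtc
Mrpl22, chr11:58171414-58171663, plus strand: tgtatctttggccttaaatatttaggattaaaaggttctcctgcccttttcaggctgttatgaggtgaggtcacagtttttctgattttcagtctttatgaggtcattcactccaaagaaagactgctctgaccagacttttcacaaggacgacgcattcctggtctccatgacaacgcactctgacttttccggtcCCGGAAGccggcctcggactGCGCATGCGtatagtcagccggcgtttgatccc

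The first letter of the ETS match lies 37 bases before the start of Mrpl34, 53 before that of Mrpl22 and 237 before that of Mrpl17. The NRF1 letters begin 33 bases before the start of Mrpl22 and 11 before that of Mrpl17. In the printed run of Mrpl12 none of the 6 motifs matched, and its TGACCTT match begins at base 34 after the start, which is not printed. Under rosiglitazone 19 of the 24 members with the ETS letters and 35 of the 44 without them were higher than in vehicle, with median log2 fold changes of 0.34 and 0.37.

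Levels are given in CPM, a read count relative to the library total as edgeR computes it, after scaling of the library sizes by the trimmed mean of M values (TMM). A gene was called higher or lower at a Benjamini-Hochberg adjusted p under 0.05 over all 14421 genes tested, from the quasi-likelihood test of edgeR, and fold changes are log2 with their standard error (SE). Library totals ran from 14056200 to 56282582 counts. Rn45s, the precursor of cytosolic ribosomal RNA, took 8.50% to 8.57% of the counts in vehicle and 4.15% (FSK3D) to 8.87% (FSK4h) in treated libraries. Among 9 adipocyte markers, the summed level in CPM was 12060 to 13610 (vehicle), 12400 to 14090 (FSK4h), 9332 to 10560 (FSK1D), 20000 to 20830 (FSK3D) and 16480 to 17070 (Rosi3D). Most of this sum is Lpl and Cfd, and Cfd was at 4698 ± 198 CPM in vehicle, 7203 ± 498 in FSK3D and 2054 ± 169 in Rosi3D (SD, n = 3). Adipoq, Fabp4, Plin1, Cidec, Retn and Lep had higher means in Rosi3D than in FSK3D (Fabp4 3140 ± 391 against 1054 ± 29.7), and Lpl, Pparg and Cfd lower ones. Of these 9, only Lep, which encodes leptin, was at 0 in a whole group, in FSK4h and FSK1D. The sum of 6 progenitor markers in CPM was 320 to 348 (vehicle), 473 to 533 (FSK4h), 705 to 724 (FSK1D), 481 to 533 (FSK3D) and 219 to 245 (Rosi3D), with Dpp4 at 0 in the 4 treated groups. Nearly all of this sum is Pdgfra and Ly6a, with means of 208.5 and 120.8 CPM in vehicle. Cd34 (1.48 CPM in vehicle) and Dlk1 (1.14) had lower means in all 4 treated groups, and Pi16 (0.118) had higher ones. The 4 smooth muscle and myofibroblast markers, Acta2 foremost, summed to 253 to 262 CPM in vehicle and 186 to 203 at 4 h, and to 21.9 (FSK1D) to 65.8 (FSK3D) in the other treated libraries. Myh11 had a higher mean than vehicle (3.28 ± 0.584 CPM) in Rosi3D (9.18 ± 1.67) and in FSK3D (4.17 ± 0.893, overlapping vehicle). Cnn1 had a mean of 4.48 ± 0.555 CPM in vehicle and 5.37 ± 0.974 in FSK4h. Markers of leukocytes stayed at or under 5.15 CPM in sum, those of endothelium at or under 9.23, and those of skeletal muscle and epithelium at or under 0.186 and 0.389. The part of these shifts in the results below was not tested, and in such bulk libraries fewer cells of a type and less RNA per cell cannot be told apart.

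The ribosomal protein genes of the mitochondrion were higher together in Rosi3D than in vehicle. Vehicle cells had also received rosiglitazone during differentiation, and their harvest time was not found. A rise with the later rosiglitazone and a fall in vehicle after differentiation therefore cannot be told apart. Rises under rosiglitazone are given here and below as differences from these vehicle cells. Of the 77, 62 were higher in Rosi3D than in vehicle and 0 were lower, where 28.6% of all tested genes were higher and 32% lower. Their median log2 fold change was 0.39, against -0.01 over all tested genes. Without Rosi3D S13, 58 were higher and 1 was lower. Their summed level was 1729, 1770 and 1746 CPM in the vehicle libraries and 2322, 2273 and 2414 in the Rosi3D libraries, so that the groups did not overlap and the Rosi3D mean of 2336 ± 71.8 (SD, n = 3) stood 33.6% above the vehicle mean of 1748 ± 20.9. Both subunits shared in this. In the large subunit 41 of 50 members rose, and its sum went from 1184 ± 11.9 to 1596 ± 64.1 CPM. Of the small subunit's 26 members 21 rose, and its sum went from 563 ± 9.83 to 739 ± 8.07 CPM.

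**Figure D1:**
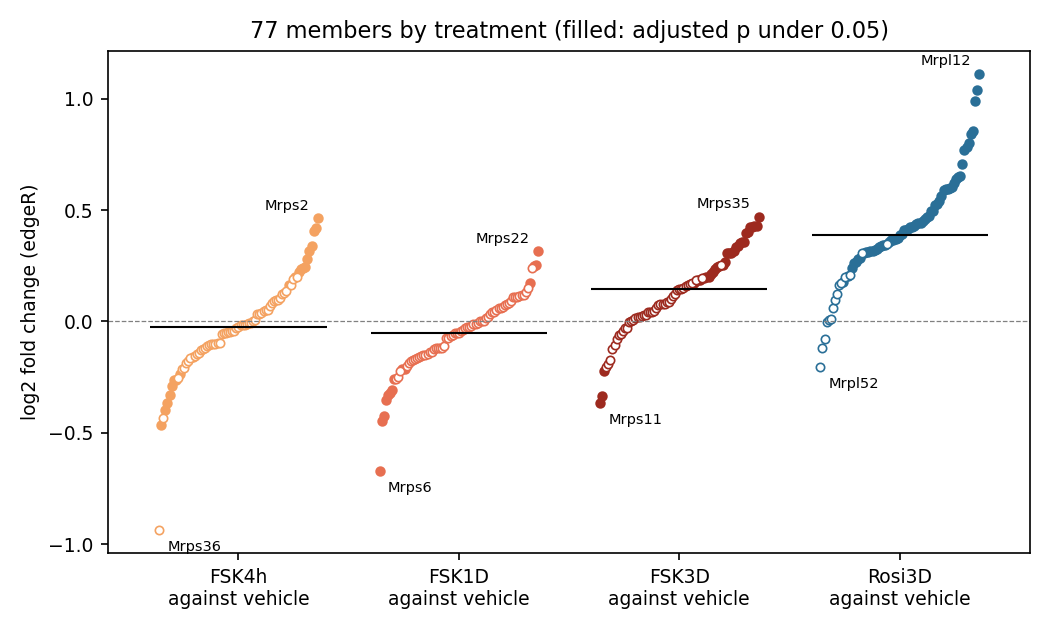
Log2 fold change (y axis) of each of the 77 members in 4 comparisons with vehicle (x axis), ordered by size within each comparison; filled points were called at an adjusted p under 0.05, open points were not, and the black line is the median. All filled points lie above 0 in Rosi3D, where 62 members were higher and 0 lower, and on both sides of 0 in FSK4h, where 12 were higher and 9 lower.

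**Figure D2:**
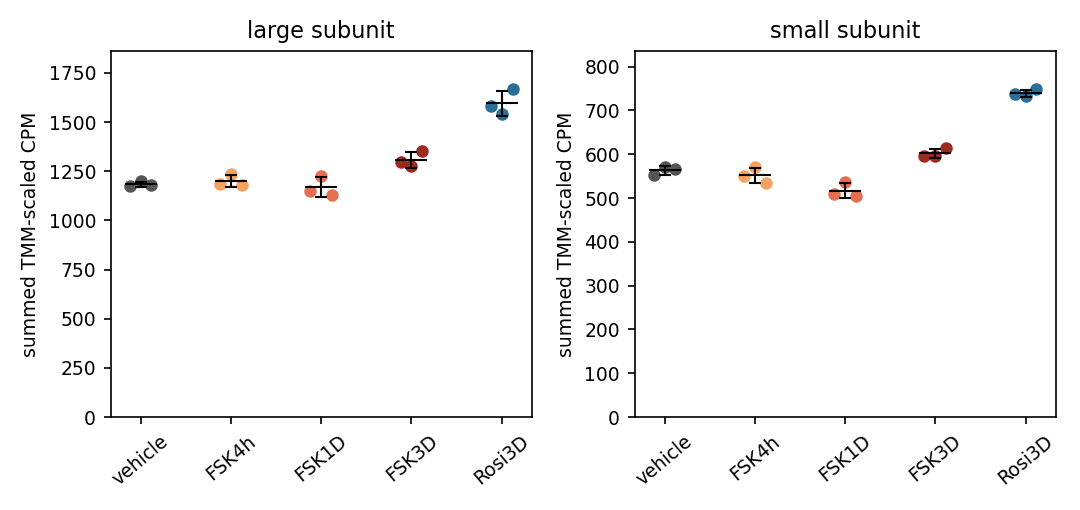
Summed TMM-scaled CPM (y axis, from 0) of the large-subunit and small-subunit members in each library, by group (x axis); points are libraries, and the black line and bars are the mean and SD of 3. The Rosi3D libraries lie above all others in both panels, the FSK3D libraries come next, and the small subunit has its lowest mean in FSK1D.

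Mrpl12 rose most under rosiglitazone. Its protein belongs to the stalk of the large subunit, where translation factors dock, and also binds the mitochondrial RNA polymerase. Its level was 42.6, 41.8 and 41.6 CPM in vehicle, 46.9, 52.6 and 47.9 in FSK4h, 39.3, 41.1 and 36.5 in FSK1D, 53.5, 48.0 and 58.9 in FSK3D, and 90.8, 85.9 and 95.7 in Rosi3D. The 3 Rosi3D libraries thus lay far above all 12 others. The log2 fold change against vehicle was 1.11 ± 0.065 (2.16-fold, adjusted p = 1.6e-16), and the one at 3 days of forskolin was 0.36 ± 0.067 (adjusted p = 2.9e-05). At 4 h the rise (0.22) kept its call in 14 of 15 alternatives, and was 0.030 (adjusted p = 0.70) in the other.

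Mrpl34, a small protein of the large subunit with a bacterial homologue, rose under rosiglitazone, with no detectable difference after 3 days of forskolin. Its level was 14.4, 14.3 and 14.2 CPM in vehicle, 13.8, 14.2 and 16.8 in FSK3D, and 27.6, 28.8 and 32.0 in Rosi3D. The FSK3D libraries overlapped those of vehicle, with a log2 fold change of 0.07 ± 0.10 (adjusted p = 0.58). In Rosi3D the log2 fold change was 1.04 ± 0.098 (adjusted p = 2.9e-11). Mrpl55, particular to the mitochondrial large subunit, was at 9.38, 8.50 and 10.1 CPM in vehicle, 11.9, 12.5 and 12.4 in FSK3D, and 17.3, 17.8 and 20.5 in Rosi3D. It rose in both, by 0.40 ± 0.11 (adjusted p = 0.0029) and 0.99 ± 0.11 (adjusted p = 6.4e-10). The other large-subunit members among the 8 largest rises in Rosi3D were Mrpl30 (0.84), Mrpl38 (0.78) and Mrpl51 (0.77).

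In the small subunit the proteins without a bacterial homologue had the larger median rise under rosiglitazone. Of these 10, 9 rose, with a median of 0.60, while 12 of the 16 with a bacterial homologue rose, with a median of 0.32. The difference between these classes was not tested. Mrps35, of the first class, had 12.4, 14.1 and 13.7 CPM in vehicle, 20.8, 16.8 and 17.7 in FSK3D, and 23.5, 25.5 and 23.8 in Rosi3D. All 6 libraries of the 3-day treatments lay above those of vehicle, with rises of 0.47 ± 0.095 (adjusted p = 8.6e-05) in FSK3D and 0.86 ± 0.092 (adjusted p = 6.5e-10) in Rosi3D. Mrps34, also of this class, rose by 0.80 in Rosi3D. Its exons in GENCODE vM21 share 1309 bases, 63.4% of their length, with Mapk8ip3 on the other strand and 763 bases with Nme3 on its own strand. The length in the deposited table is 898 bases against 2064 in GENCODE, so the shared part of the bases counted is not known. Since the handling of strand and shared reads in the counting is not stated in the sources used here, the value of Mrps34 is uncertain. The same limit reaches further, since 23 members share exon bases in GENCODE vM21 with another counted gene, among them Mrpl13 (330 bases with Mtbp). The tenth member of the class, Mrps25, was not called (-0.08 ± 0.10), and 69.8% of its exon bases in GENCODE vM21 lie opposite exons of Nr2c2. In the large subunit 22 of 29 members with a bacterial homologue rose, with a median of 0.37, and 19 of 21 without one, with a median of 0.42.

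Against this rise, 15 members were not called under rosiglitazone. Mrpl13, a large-subunit protein with a bacterial homologue, had 52.6, 53.1 and 51.5 CPM in vehicle and 56.5, 46.8 and 53.1 in Rosi3D, a log2 fold change of -0.00 ± 0.064 (adjusted p = 0.99). Its vehicle libraries lay inside the range of the Rosi3D libraries. In FSK3D it had 63.9, 60.4 and 62.2 CPM, above every vehicle library (0.25 ± 0.064, adjusted p = 0.0014). Lowest of all was Mrpl52 (-0.20 ± 0.15, adjusted p = 0.26). Mrps36, the dehydrogenase subunit, had 0.370 to 1.02 CPM in vehicle and 0.506 to 1.00 in Rosi3D, too few reads for a firm comparison (0.13 ± 0.40). RefSeq lists pseudogenes for it and for Mrpl23, which had 1.08 to 1.80 CPM in vehicle and 1.14 to 2.14 in Rosi3D.

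**Figure D3:**
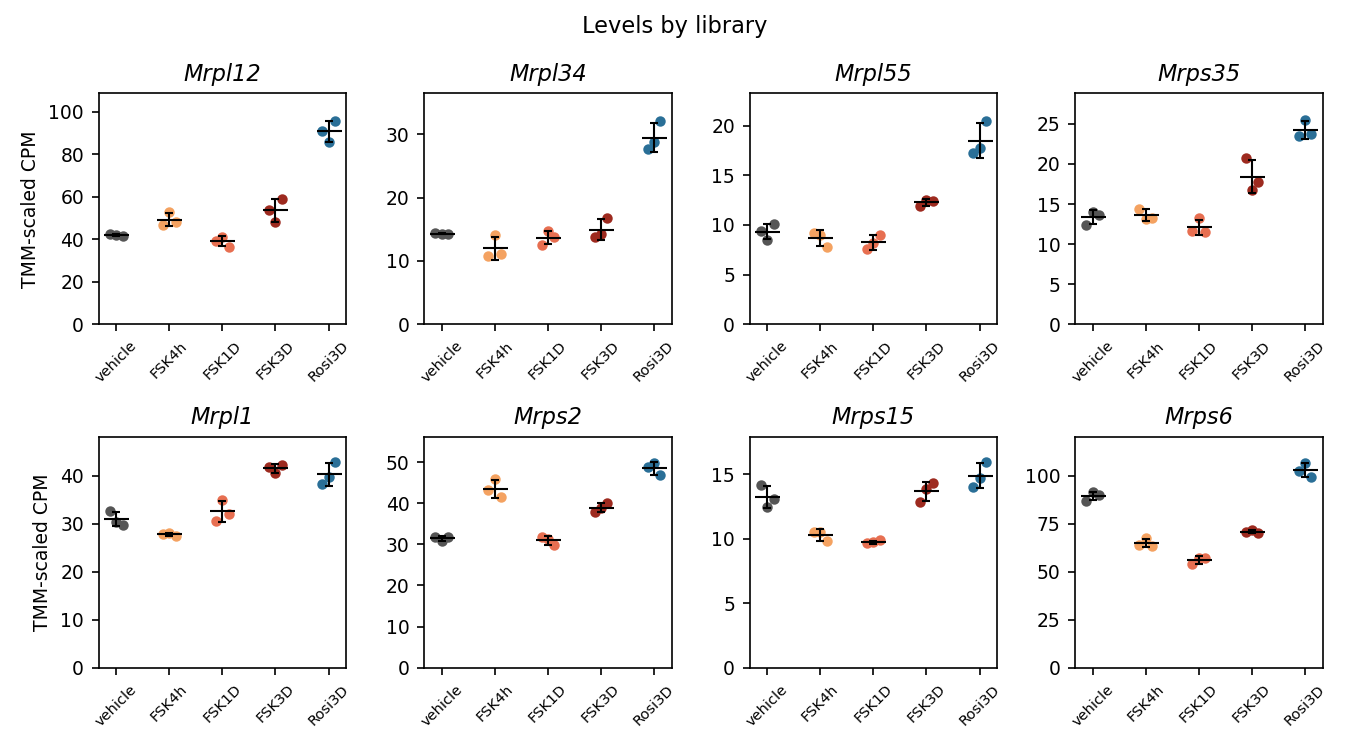
TMM-scaled CPM (y axes, each from 0) of 8 members in each of the 15 libraries, by group (x axis); points are libraries, and the black line and bars are the mean and SD of 3. Mrpl12, Mrpl34, Mrpl55 and Mrps35 are highest in Rosi3D, Mrpl1 is as high in FSK3D, Mrps2 is higher at 4 h than in vehicle and FSK1D, and Mrps15 and Mrps6 are lowest in FSK1D.

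After 3 days of forskolin a smaller part of the members rose. In FSK3D 29 were higher and 3 lower than in vehicle, with 25.9% of all tested genes higher and 27% lower. These counts are 37.7% and 3.90% of the members, beside 80.5% and 0% under rosiglitazone. Their median was 0.14, and the summed level was 1892, 1875 and 1969 CPM, above every vehicle library, with a mean of 1912 ± 50.0 (SD, n = 3). Of the 10 small-subunit proteins without a bacterial homologue 6 rose, of the 16 with one 4 rose and 2 fell, and of the large subunit's 50 members 19 rose and 1 fell. Besides Mrps35, Mrpl12 and Mrpl55, the larger rises that kept their call in every alternative were those of Mrps22, Mrpl27, Mrpl1 and Mrps14.

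Mrpl1, whose protein forms the stalk near the exit site for tRNA, had 32.6, 30.4 and 29.8 CPM in vehicle, 27.8, 28.1 and 27.5 in FSK4h, 30.6, 35.0 and 32.1 in FSK1D, 41.9, 40.5 and 42.2 in FSK3D, and 38.2, 39.7 and 42.9 in Rosi3D. The FSK3D and Rosi3D libraries overlapped each other and lay above all the rest. Its rise was 0.42 ± 0.069 in FSK3D (adjusted p = 2.9e-06) and 0.38 ± 0.068 in Rosi3D (adjusted p = 1.1e-05). Mrps22, a small-subunit protein without a bacterial homologue, had 20.1, 19.3 and 17.7 CPM in vehicle, 23.7, 24.9 and 23.7 in FSK4h, 23.7, 23.4 and 24.1 in FSK1D, 25.1, 25.1 and 26.5 in FSK3D, and 25.9, 27.0 and 26.6 in Rosi3D. Every treated library stood above every vehicle library. The log2 fold changes were 0.34 ± 0.074 at 4 h, 0.31 ± 0.074 at 1 day, 0.43 ± 0.075 at 3 days and 0.47 ± 0.073 in Rosi3D. Scaling by library size alone left 0.15 at 4 h, with an adjusted p of 0.087 in place of 0.00019. Mrpl27, near the site of peptide bond formation, rose by 0.43 ± 0.10 in FSK3D, and Mrps14, near the decoding site, by 0.40 ± 0.076. RefSeq lists a pseudogene for Mrpl27.

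The members that fell at 3 days were Mrps6, Mrpl28 and Mrps11. Mrpl28, of the large subunit, had 56.1, 61.3 and 59.4 CPM in vehicle and 48.3, 50.7 and 52.2 in FSK3D, without overlap (-0.22 ± 0.056, adjusted p = 0.00099). In Rosi3D its libraries, at 61.4, 59.1 and 57.7 CPM, overlapped those of vehicle. Mrps11 (-0.37 ± 0.13) shares 173 exon bases with Mrpl46 on the other strand, and its call was lost without vehicle S1, vehicle S3 or FSK3D S10, with values down to -0.26 and adjusted p up to 0.15.

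Set against each other, the 2 treatments of 3 days differed in most members. In FSK3D 46 members were lower than in Rosi3D and 1, Mrpl13, was higher, where 20.7% of all tested genes were lower and 22.5% higher. The median difference was -0.28. Mrpl34 (-0.97 ± 0.10), Mrpl12 (-0.76 ± 0.065), Mrpl38 (-0.69 ± 0.10) and Mrpl55 (-0.59 ± 0.11) had the largest differences, and Mrpl13 had one of 0.25 ± 0.064 (adjusted p = 0.0018). A further 30 members, among them Mrpl1 (0.05 ± 0.068), Mrps22 (-0.05 ± 0.073), Mrpl17 (-0.11 ± 0.052) and Mrps18a (0.05 ± 0.085), were not called. The doses were not found in the sources used here, so these are differences between the treatments as applied.

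At 4 h of forskolin members moved in both directions. In FSK4h 12 were higher and 9 lower than in vehicle, where 28.4% of all tested genes were higher and 30.7% lower, and the median was -0.02. Their summed level, at 1737, 1805 and 1716 CPM, overlapped that of vehicle. This split rests on the scaling: without TMM factors, by library size alone, 3 members were higher and 41 lower, and the median over the 14421 genes moved from -0.03 to -0.23. The members named next kept their call with either scaling and without any single library. Mrps2, a small-subunit protein with a bacterial homologue, had 31.9, 30.8 and 31.8 CPM in vehicle, 43.3, 45.8 and 41.4 in FSK4h, 31.8, 31.4 and 29.8 in FSK1D, 38.0, 38.8 and 40.1 in FSK3D, and 48.8, 49.8 and 46.8 in Rosi3D. The 4 h libraries stood above those of vehicle, with a rise of 0.47 ± 0.063 (adjusted p = 8.5e-08). They also stood above those of FSK3D on this scale, but the difference of FSK3D from FSK4h went from -0.16 to 0.022 with library size alone. At 1 day it overlapped vehicle.

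Mrpl50, particular to the mitochondrial large subunit, followed a like course, with 22.0, 19.4 and 21.9 CPM in vehicle, 29.8, 28.2 and 26.5 in FSK4h, and 20.3, 18.6 and 22.6 in FSK1D. Its rise at 4 h was 0.42 ± 0.085 (adjusted p = 6.8e-05). Mrps18b, one of 3 paralogs descended from bacterial S18, had 13.9, 14.8 and 13.9 CPM in vehicle and 18.7, 19.4 and 18.4 in FSK4h, a rise of 0.41 ± 0.093 (adjusted p = 0.00032), and rose by 0.65 ± 0.092 in Rosi3D. Its paralogs Mrps18c (-0.02 ± 0.11) and Mrps18a (-0.13 ± 0.086) were not called at 4 h, although the latter was with library size alone (-0.32). Against the 4 h libraries, the 1-day libraries were lower in Mrps2 (-0.49 ± 0.063), Mrps18b (-0.48 ± 0.094) and Mrpl50 (-0.46 ± 0.086). Mrps30, in the large subunit, was called at 4 h (0.32 ± 0.09), but not with library size alone (0.12), and in Rosi3D it rose by 0.41 ± 0.090.

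Of the 9 falls at 4 h, 4 kept their call in every alternative, those of Mrps6, Mrps15, Mrpl2 and Mrpl49. Mrps15, of the small subunit, had 14.2, 12.5 and 13.1 CPM in vehicle, 10.5, 10.6 and 9.80 in FSK4h, 9.64, 9.73 and 9.88 in FSK1D, 12.8, 13.8 and 14.3 in FSK3D, and 14.02, 14.7 and 16.0 in Rosi3D. It was lower than in vehicle at 4 h (-0.37 ± 0.098, adjusted p = 0.0017) and at 1 day (-0.45 ± 0.099, adjusted p = 0.00042), with no overlap, and overlapped vehicle at 3 days. Mrpl2, of the core of the large subunit, had 21.0, 21.1 and 21.4 CPM in vehicle and 17.1, 17.6 and 15.8 in FSK4h (-0.33 ± 0.086). Mrpl49 had 51.5, 54.1 and 50.8 CPM in vehicle and 45.8, 44.1 and 42.9 in FSK4h (-0.24 ± 0.057), and its last exon bases lie opposite those of Syvn1 over 91 bases.

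At 1 day of forskolin few members differed from vehicle. In FSK1D 4 were higher and 10 lower, where 19.5% of all tested genes were higher and 20.7% lower, and the median was -0.05. With library size alone 2 were higher and 12 lower. Leaving out single libraries gave 4 (vehicle S2), 5 (FSK1D S7) or 6 (vehicle S1 or FSK1D S9) lower members, and 2 higher ones without vehicle S1. Of the 14 calls against vehicle, 5 held in every alternative, namely the rises of Mrps22 and Mrpl17 and the falls of Mrps6, Mrps15 and Mrpl20. Mrpl17, beside the exit of the peptide tunnel, had 60.4, 60.7 and 58.4 CPM in vehicle, 64.5, 69.5 and 68.2 in FSK1D, 69.5, 67.4 and 69.0 in FSK3D, and 74.0, 75.6 and 73.4 in Rosi3D. Its rise at 1 day was 0.17 ± 0.052 (adjusted p = 0.0073). Mrpl20, of the large subunit, had 15.7, 13.9 and 15.6 CPM in vehicle, 12.3, 11.4 and 11.6 in FSK1D and 22.3, 22.9 and 22.9 in Rosi3D. It was lower than in vehicle at 1 day (-0.35 ± 0.10, adjusted p = 0.0062) and higher in Rosi3D (0.59 ± 0.098).

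Mrps6, a small-subunit protein with a bacterial homologue, had the largest called fall at 4 h and at 1 day. It had 87.0, 91.5 and 89.9 CPM in vehicle, 63.9, 67.5 and 63.4 in FSK4h, 53.9, 57.1 and 57.2 in FSK1D, 70.8, 71.8 and 70.4 in FSK3D, and 103, 107 and 99.6 in Rosi3D. No 2 of these groups overlapped. The log2 fold changes were -0.46 ± 0.050, -0.67 ± 0.051 and -0.34 ± 0.051 at the 3 forskolin times and 0.20 ± 0.049 in Rosi3D. Slc5a3, the sodium-coupled myo-inositol transporter, is encoded on the same strand within the Mrps6 gene on chromosome 16 (92058270 to 92112227 in GENCODE vM21, GRCm38), and 159 bases of the exons of both genes coincide. Slc5a3 had 334183 reads over the 15 libraries against 33978 for Mrps6. Its own log2 fold changes were -0.63, -0.83 and -0.25 at the 3 forskolin times and -0.13 in Rosi3D. How reads in the shared bases were counted is not stated in the sources used here, so the values of Mrps6 are uncertain.

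The forskolin times were also compared with each other. No vehicle group was matched to each time, so length of treatment and time in culture cannot be told apart, here or against vehicle. From 1 to 3 days 32 members were higher and 1 lower, where 25.2% of all tested genes were higher and 25.8% lower, and the median was 0.19. Without FSK3D S12, 2 were lower. From 4 h to 1 day 8 were higher and 14 lower, where the background was 28.4% and 28.9%. With library size alone these counts were 27 and 10. From 4 h to 3 days 30 were higher and 7 lower, where the background was 35% and 33.5%, and with library size alone 54 were higher and 0 lower. The count of 7 was 1 without FSK3D S10 and 4 without FSK3D S11 or FSK4h S5. The largest differences from 1 to 3 days were in Mrps35 (0.61 ± 0.097), Mrps18a (0.57 ± 0.088) and Mrpl55 (0.57 ± 0.11). Mrps18a had 17.4, 21.4 and 19.7 CPM in FSK1D and 28.0, 27.6 and 31.0 in FSK3D, without overlap.

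Over the 5 groups together, 69 of the 77 members differed in at least 1 of them, where 86.5% of all tested genes did. The 8 that were not called were Mrps11, Mrps18c, Mrps25, Mrps36, Mrpl23, Mrpl32, Mrpl33 and Mrpl52.

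The members were set beside the 81 tested genes of the cytosolic ribosome and the 36 tested nuclear subunits of respiratory complex I. Each treatment is compared with the same vehicle libraries. Of all tested genes, 28.4% were higher and 30.7% lower in FSK4h, and 19.5% and 20.7% in FSK1D. In FSK3D these shares were 25.9% and 27%, and in Rosi3D 28.6% and 32%. For the cytosolic ribosomal proteins, 48 were higher and 0 lower in FSK4h, 0 and 28 in FSK1D, 2 and 58 in FSK3D, and 3 and 48 in Rosi3D. With library size alone the 4 h counts were 4 and 3, and the median there went from 0.18 to -0.02. The cytosolic and mitochondrial sets had medians of opposite sign in both 3-day treatments, at -0.31 and 0.14 in FSK3D and -0.24 and 0.39 in Rosi3D. These signs were the same with library size alone. Of the complex I subunits 1 was higher and 3 lower in FSK4h, 1 and 4 in FSK1D, 33 and 0 in FSK3D, and 35 and 0 in Rosi3D, and with library size alone 0 were higher and 20 lower in FSK4h. Their medians were 0.42 in FSK3D and 0.95 in Rosi3D, above the 0.14 and 0.39 of the mitochondrial ribosomal proteins. In FSK3D against Rosi3D 35 of the 36 were lower, with a median of -0.53, beside 20.7% of all tested genes lower. The differences between the lists were not tested.

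**Figure D4:**
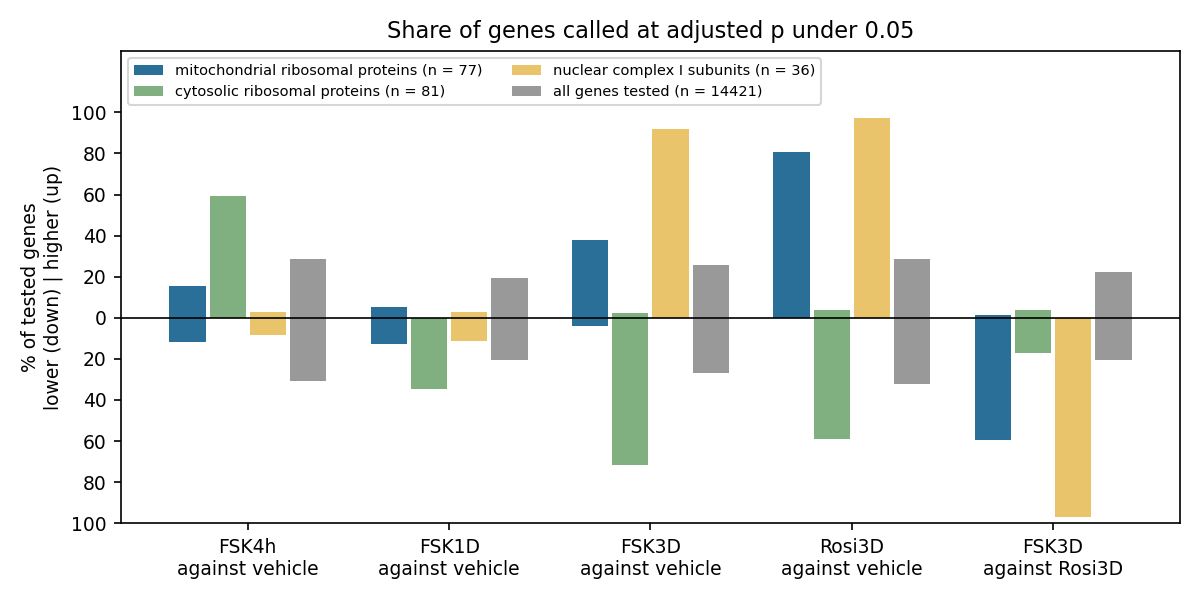
Percent of tested genes called higher (bars up) and lower (bars down) at an adjusted p under 0.05 (y axis) in 5 comparisons (x axis), for the 77 members, 81 cytosolic ribosomal proteins, 36 nuclear complex I subunits and all 14421 tested genes. In Rosi3D the members (80.5% higher, 0% lower) and complex I (97.2% higher) point up, while the cytosolic ribosomal proteins (59.3% lower) point down.

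Other genes of mitochondrial translation were counted in the 3-day treatments, where 28.6% (Rosi3D) and 25.9% (FSK3D) of all tested genes were higher and 32% and 27% lower. Mitoribosome proteins whose symbols fall outside the naming rule numbered 6 tested, of which 4 rose in Rosi3D and 2 in FSK3D, and 0 fell in either. Ptcd3, a small-subunit protein of this list, rose by 0.42 ± 0.049 in FSK4h, 0.49 ± 0.050 in FSK3D and 0.59 ± 0.049 in Rosi3D, and Dap3, another, by 0.13 ± 0.049 in Rosi3D. Ict1, the older symbol of Mrpl58, a peptidyl-tRNA hydrolase built into the large subunit, rose by 0.33 ± 0.092 in Rosi3D and was not called in FSK3D (-0.01 ± 0.096). Mitochondrial translation factors rose in 13 of 15 cases in Rosi3D and 10 of 15 in FSK3D, with medians of 0.43 and 0.28. Tufm, the elongation factor that brings tRNA to the ribosome, had 23.1, 24.9 and 24.3 CPM in vehicle, 27.8, 26.7 and 30.0 in FSK3D, and 38.9, 34.9 and 42.2 in Rosi3D, with rises of 0.23 ± 0.078 and 0.68 ± 0.075. Oxa1l, which inserts newly made proteins into the inner membrane, rose by 0.66 ± 0.077 in Rosi3D and had a value of 0.01 ± 0.080 in FSK3D. Of the 17 mitochondrial aminoacyl-tRNA synthetases, which charge tRNAs, 12 rose in Rosi3D and 7 in FSK3D, with medians of 0.32 and 0.23. Assembly and ribosomal RNA maturation factors numbered 26 tested, of which 16 rose in Rosi3D (median 0.31), and 10 rose and 2 fell in FSK3D (median 0.22). At 4 h the calls of this list were 8 higher and 9 lower, with Rpusd3, a pseudouridine synthase, at -0.87 ± 0.10 and C1qbp, a matrix protein, at 0.57 ± 0.060. With library size alone they were 3 and 16, and both named genes kept their call (-1.06 and 0.37).

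Of 9 tested factors that copy and transcribe mitochondrial DNA, 6 rose in Rosi3D (median 0.29), and 2 rose and 2 fell in FSK3D, each 22.2% of the list beside 25.9% and 27% of all tested genes. Tfam, which packages this DNA and helps to start its transcription, rose by 0.20 ± 0.056 in FSK3D and 0.29 ± 0.055 in Rosi3D. Polrmt, the RNA polymerase that the protein of Mrpl12 binds, rose by 0.39 ± 0.060 in Rosi3D and fell in FSK3D (-0.14 ± 0.062, adjusted p = 0.049). Tefm had the largest rise of the list in both, at 0.68 ± 0.12 in FSK3D and 0.82 ± 0.12 in Rosi3D. Polg fell more than Polrmt in FSK3D (-0.25 ± 0.058) and rose in Rosi3D (0.21 ± 0.056). No mRNA encoded by mitochondrial DNA is in the table used here, so the products of this ribosome's own templates were not analysed.

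Of 11 tested regulators of nuclear mitochondrial genes, 9 were higher and 1 lower in FSK4h, 1 and 6 in FSK1D, 5 and 3 in FSK3D, and 5 and 3 in Rosi3D. Over all tested genes the higher and lower shares were 28.4% and 30.7%, 19.5% and 20.7%, 25.9% and 27%, and 28.6% and 32% in that order. Ppargc1a, the coactivator PGC-1α, had 31.1, 31.9 and 31.8 CPM in vehicle, 62.5, 85.5 and 73.4 in FSK4h, 18.6, 19.6 and 16.7 in FSK1D, 49.4, 50.9 and 47.7 in FSK3D, and 104, 95.9 and 105 in Rosi3D. No 2 of these groups overlapped, and its log2 fold changes were 1.22 ± 0.078, -0.79 ± 0.086, 0.64 ± 0.081 and 1.69 ± 0.078 in that order. Esrra, the estrogen-related receptor α, had 35.8, 41.4 and 40.1 CPM in vehicle, 52.4, 57.3 and 65.1 in FSK3D, and 102, 96.6 and 108 in Rosi3D, with rises of 0.58 ± 0.074 and 1.39 ± 0.072. At 4 h its libraries overlapped vehicle (-0.06 ± 0.074), although with library size alone it was called lower (-0.25). At 1 day Esrra was lower than in vehicle (-0.28 ± 0.076). Gabpa, the DNA-binding subunit of GABP, rose by 0.44 ± 0.058 in FSK4h, 0.20 ± 0.059 in FSK3D and 0.56 ± 0.058 in Rosi3D. Nrf1 rose by 0.49 ± 0.059 in FSK4h, fell in FSK3D (-0.24 ± 0.061) and was not called in Rosi3D (0.07 ± 0.059). Ppargc1b rose by 0.45 ± 0.097 in FSK4h, fell in FSK1D (-0.98 ± 0.11), and rose by 0.66 ± 0.098 in FSK3D and 1.935 ± 0.094 in Rosi3D. Pprc1 rose in FSK4h (0.71 ± 0.050) and fell in FSK3D (-0.90 ± 0.053) and Rosi3D (-0.69 ± 0.051). Myc likewise rose in FSK4h (0.88 ± 0.080) and fell in FSK3D (-0.90 ± 0.090) and Rosi3D (-0.51 ± 0.085). Ppargc1a and Esrra were higher in Rosi3D than in FSK3D, by 1.05 and 0.81 (FSK3D against Rosi3D, -1.05 ± 0.077 and -0.81 ± 0.071).

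Levels were also compared between members, per length. Divided by the transcript length in the deposited table, the level in vehicle ran from 0.988 CPM per kilobase for Mrps36 to 115 for Mrps6, with a median of 14.8 over the 77. Mrps36 is no ribosomal protein, and the lowest ribosomal one was Mrpl23 (2.28 ± 0.71). After Mrps6, whose overlap with Slc5a3 was given above, the highest were Mrpl13 (66.7 ± 1.01) and Mrps21 (63.8 ± 1.38), in CPM per kilobase ± SD with n = 3. Next above Mrpl23 was Mrps25 (2.59 ± 0.059). The median per kilobase was 17.0 in FSK3D and 21.8 in Rosi3D. Mrpl12, the eighth highest in vehicle at 44.3 ± 0.547, had 95.7 ± 5.15 in Rosi3D, above every member there but Mrps6. Lengths in the deposited table differ from those in GENCODE vM21 for many members (786 against 7936 exon bases for Mrpl13), which moves a level per length but not a fold change.

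**Figure D5:**
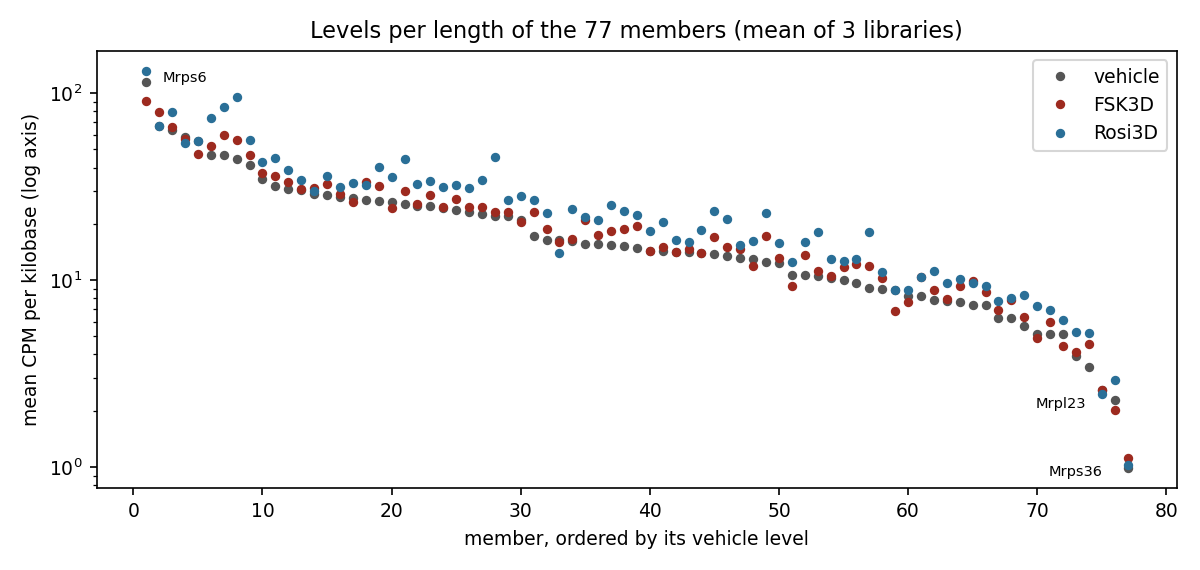
Mean CPM per kilobase (y axis, log scale) of each member in vehicle, FSK3D and Rosi3D (means of 3 libraries), with members ordered along the x axis by their vehicle level. The Rosi3D points lie above the vehicle points along most of the range, which spans from 0.988 (Mrps36) to 115 (Mrps6) CPM per kilobase in vehicle.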

How the data were processed

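RNA depleted of ribosomal RNA, per the labels' protocols, was sequenced in 15 libraries. The authors' deposited table holds raw read counts per gene. Reads were handled with fastp, STAR and featureCounts on GRCm38 (mm10), per the submitters' processing notes. Tool versions, the annotation, and how pairs, strand and multiply matching reads were treated were not found in the sources used here. In every library fewer genes had a count of 1 (407 to 539) than of 2 (721 to 907), so halved counts were among the alternatives. The S-number in a column name differs from the labels' replicate number, and columns were used as unnumbered libraries.

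Counts were filtered with filterByExpr, scaled by TMM and fitted in edgeR 4.0.16 (R 4.3.3) by a robust quasi-likelihood model of 1 mean per group over all 15 libraries (10 residual degrees of freedom, common biological coefficient of variation 5.97%). Tests are two-sided, and the SE is the size of the log2 fold change over the square root of F. The procedure was also run on simulated counts. Far fewer genes were changed there than were called here, so that run cannot speak to the scaling. Members, roles and lists were chosen with earlier results of these data known. The text names, per comparison, at most the 8 called members with the largest rise and the 8 with the largest fall without overlap between groups, the 3 highest and 3 lowest per length, and the fixed Mrpl12, Mrps18 paralogs, Mrps30 and Mrps36. Others, such as Mrpl13 in Rosi3D and members not called, were chosen after their values were seen. Positions are from GENCODE vM21, promoters from RefSeq (GRCm38.p6). Other alternatives were RLE factors or library size alone, looser and stricter filters, DESeq2 1.42.0, thinning, the table without Rn45s, only the compared groups, and leaving out each library.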

Additional observations from a re-analysis of the deposited data

How the results depend on the processing

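No paired analysis was possible because the columns of the table carry no replicate number of the labels. Scaling by library size alone gave 3 higher and 41 lower members in FSK4h against vehicle, 2 higher in FSK1D against vehicle, 27 higher in FSK1D against FSK4h, and 54 higher and 0 lower in FSK3D against FSK4h, where Mrps2 went from -0.16 to 0.022. Thinning all libraries to 14056200 counts gave 2 higher in FSK1D against vehicle. Leaving out single libraries gave 2 to 4 higher and 4 to 10 lower in FSK1D against vehicle, 0 to 1 lower in Rosi3D against vehicle, 1 to 2 lower in FSK3D against FSK1D, and 1 to 8 lower in FSK3D against FSK4h. It gave 58 to 62 higher in Rosi3D against vehicle, 20 to 29 higher in FSK3D against vehicle, 39 to 47 lower in FSK3D against Rosi3D, and 67 to 70 of any difference. The cause was not tested. All other counts of members stayed within 1.5 times the reported count under the alternatives run. Of the members named by the rule and called, 11 of 11 in Rosi3D against vehicle, 11 of 11 in FSK3D against Rosi3D, 10 of 12 in FSK3D against vehicle, 7 of 17 in FSK4h and 5 of 10 in FSK1D kept their call in every alternative. Depth limits Mrps36 and Mrpl23, which had the fewest reads of the members.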

Other observations

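Many members begin close to a gene on the other strand. In GENCODE vM21, 19 of the 77 (24.7%) had a tested protein-coding gene on the other strand that starts within 1000 bases upstream of theirs. Among 12991 tested protein-coding genes the share was 9.52%. Examples are Mrpl30 with Mitd1 (66 bases apart), Mrps18b with Ppp1r10 (45 bases) and Mrps12 with Sars2 (172 bases), the mitochondrial seryl-tRNA synthetase. Pairs that overlap at their starts were counted only where the overlap was short. Mrps11 and Mrpl46, which run apart from overlapping starts, are thus not among the 19. Of these 19 members 16 were higher in Rosi3D than in vehicle and 0 lower, with a median log2 fold change of 0.35. Of their 19 neighbours 6 were higher and 5 lower, with a median of -0.03, beside 28.6% and 32% of all tested genes. In FSK3D 6 of the members were higher and 0 lower (median 0.08), and 1 of the neighbours was higher and 7 lower (median -0.05), beside 25.9% and 27% of all tested genes. The difference between the members and their neighbours was not tested.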
